A study of Mus musculus with 10 samples.

Results

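Genes that set up the dorsoventral axis of the mouse retina, and those that make or remove retinoic acid along it, were followed for a pair of histone marks at their transcription start sites (TSS). Members were taken by gene symbol, and 10 genes were found among the 20044 symbols of the deposited table, in 11 of its 25152 entries. They are the dorsal genes Tbx2, Tbx3, Tbx5, Bmp4 and Aldh1a1, the ventral genes Vax1, Vax2 and Aldh1a3, and Cyp26a1 and Cyp26c1, which in the embryo mark a horizontal zone between them. Tbx3 had 2 entries with identical values, and every other member had 1.

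H3K4me2 and H3K27me3 were profiled by ChIP-Seq in retinas of embryos (stage E17.5) and of pups on postnatal days 1, 7 and 15 (PN1, PN7, PN15). Each combination of mark and stage has 1 library, made from at least 20 pooled retinas. The study's methods describe C57BL/6j wild type animals, whereas the strain label of all 10 samples names Pde6b (rd1/rd1) mutant mice and the embryonic samples are titled E17. The labels and the methods also give the catalogue numbers of both histone antibodies in opposite order, and the H3K27me3 column of PN7 carries an extra letter b. The H3K4me2 library of rd1/rd1 retinas at PN30 and the anti-GFP control at PN56 were not analysed here. Whole retinas were pooled, so no value separates dorsal from ventral tissue, and a change in the share of cells carrying a mark cannot be told apart from a change in its level per cell.

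As background, dimethylation of lysine 4 of histone H3 (H3K4me2) is found at promoters that are active or poised, and trimethylation of lysine 27 (H3K27me3) is laid down by Polycomb repressive complex 2 at developmental genes that are kept silent. In the optic vesicle BMP signalling favours the dorsal T-box factors, while the Vax homeodomain factors mark the ventral side. Aldh1a1 and Aldh1a3 make retinoic acid from retinaldehyde at the dorsal and ventral poles, and Cyp26 enzymes degrade it between them.

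The value of a gene is its normalized occupancy, the reads whose midpoints fell within 2.5 kb of the TSS scaled by the authors to the library's mapped reads. From the annotated gene starts, windows of the same size in mm9 coordinates lay around Tbx2 (chr11:85643553-85648553), Tbx3 (chr5:120118178-120123178), Tbx5 (chr5:120282172-120287172), Bmp4 (chr14:47007844-47012844), Vax1 (chr19:59243126-59248126), Vax2 (chr6:83658758-83663758), Aldh1a1 (chr19:20673951-20678951), Aldh1a3 (chr7:73569903-73574903), Cyp26a1 (chr19:37769798-37774798) and Cyp26c1 (chr19:37757571-37762571). The authors used RefSeq starts, which can differ, as the RefSeq promoter table places the start 739 bases inside the annotated transcript of Vax1 and 99 inside that of Cyp26c1. The windows of Tbx2, Tbx3, Vax2 and Bmp4 also held annotated noncoding transcripts, and that of Cyp26c1 held part of Exoc6, a protein-coding neighbour, so reads of these genes could not be assigned to a single transcript. Cyp26c1 and Cyp26a1 started 12.2 kb apart and Tbx3 and Tbx5 164 kb apart, so no pair of windows overlapped.

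Promoter sequences are shown for Cyp26a1, rich in CpG and high in H3K27me3, for Aldh1a1, poor in CpG with H3K27me3 at background, and for Bmp4, which has fewer CpG than Cyp26a1 and high H3K27me3. They are taken from the RefSeq promoter table (GRCm38.p6) and were placed on mm9 by exact match, and each ends at the base before the annotated start site. Of the 10 members 5 matched the table.
Cyp26a1, chr19:37772048-37772297, plus strand, capitals mark a retinoic acid response element: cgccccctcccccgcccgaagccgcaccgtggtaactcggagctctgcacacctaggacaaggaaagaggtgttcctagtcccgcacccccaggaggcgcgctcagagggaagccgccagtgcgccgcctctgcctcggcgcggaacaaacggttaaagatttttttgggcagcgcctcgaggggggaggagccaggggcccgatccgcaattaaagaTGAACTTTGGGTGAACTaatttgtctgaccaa
Aldh1a1, chr19:20676208-20676450, plus strand, capitals mark the CpG: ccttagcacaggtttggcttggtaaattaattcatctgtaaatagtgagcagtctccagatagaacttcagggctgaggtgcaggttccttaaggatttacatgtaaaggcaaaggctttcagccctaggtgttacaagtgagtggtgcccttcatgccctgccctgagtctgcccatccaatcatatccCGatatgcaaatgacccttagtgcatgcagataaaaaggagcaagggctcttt
Bmp4, chr14:47010345-47010594, minus strand, capitals mark CpG: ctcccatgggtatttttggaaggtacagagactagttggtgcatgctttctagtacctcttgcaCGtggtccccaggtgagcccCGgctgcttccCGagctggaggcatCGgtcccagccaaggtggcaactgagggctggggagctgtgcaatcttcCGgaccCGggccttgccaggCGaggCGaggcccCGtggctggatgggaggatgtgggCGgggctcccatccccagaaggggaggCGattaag

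The Cyp26a1 stretch of 250 bases held 20 CpG, the Bmp4 stretch 11 and the Aldh1a1 stretch of 243 bases 1, against a median of 6 over 32851 mouse promoters of the table. The capitals in Cyp26a1 are a DR5 element, a direct repeat with a spacer of 5 bases to which retinoic acid receptors are known to bind, and it spans 32 to 16 bases before the start site. The DR5 element, searched on both strands, was in 29 of the 32851 promoters (0.0883%). The T-box motif AGGTGTGA and the homeodomain core TAATTA were searched likewise and occurred in 1.12% and 4.84% of promoters, but in none of these 3 stretches. A second Aldh1a1 promoter of the table, chr19:20566823-20567072, held 1 AGGTGTGA and 3 CpG. A match of letters is a description of the sequence and no evidence of binding.

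H3K4me2 fell at 9 of the 10 genes between E17.5 and PN15, counting a change of at least 2-fold in value + 1, where 11.7% of all symbols fell and 7.83% rose. None of the members rose. Among the 1511 symbols with a mean H3K27me3 of at least 100 over the stages, to which 8 members belong, 26.1% fell and 4.37% rose, with a median of -0.39. The median member changed by -1.57 on the log2 scale, with a range from -2.09 to 0.10, beside a median of 0.13 over all symbols. H3K27me3 did not move in one direction, with 3 members higher (Tbx2, Tbx3 and Aldh1a1; 12.1% of all symbols), 1 lower (Tbx5; 16.1% of all symbols) and a median of -0.27 beside 0.00 over all symbols. Counted from PN1 in place of E17.5, 5 members fell in H3K4me2 (12.4% of all symbols). In H3K27me3 1 rose and 5 fell (13.1% and 16.9% of all symbols), so these counts depend on the E17.5 libraries. The call of Aldh1a1 in H3K27me3 was lost with a pseudocount of 5. With 1 library per mark and stage there was no replicate error and no test. Beside the values stand exact Poisson 95% intervals that take 1 unit as 1 read, which cover counting error only and are at least as wide as the true ones.

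**Figure D1:**
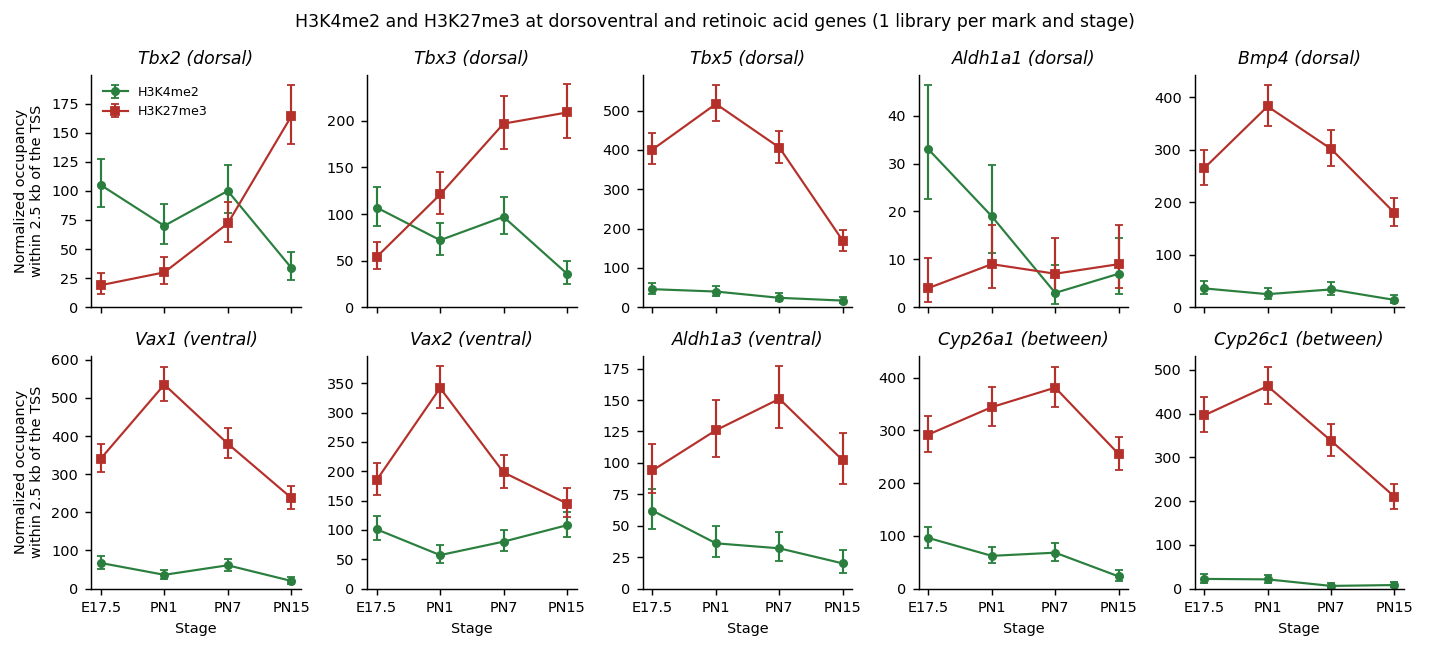
Normalized occupancy (vertical axis, scaled separately for each gene) of H3K4me2 (green circles) and H3K27me3 (red squares) by stage for the 10 genes, 1 library per point, with bars for the conservative 95% counting interval. The marks come from different antibodies and their heights are not comparable with each other. At Tbx2 and Tbx3 H3K4me2 ends at 34 and 36 and H3K27me3 at 164 and 209, while Vax2 ends with H3K4me2 at 108.

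Tbx2 encodes a T-box repressor of the dorsal retina and had the largest log2 gain of H3K27me3 among the members, while by difference in occupancy Tbx3 gained more. Its H3K27me3 was 19 (E17.5), 30 (PN1), 72 (PN7) and 164 (PN15), with intervals of 11.4 to 29.7 at the start and 140 to 191 at the end. The value of 19 was under the 95th percentile of the olfactory receptor entries of that library (21), used here as background, so the log2 gain starts from background. At Tbx2 H3K4me2 was 105, 70, 100 and 34 at the same stages. Every stage was higher than the one before in H3K27me3, whereas H3K4me2 stayed high until PN7 and was low at PN15 alone. The log2 changes from E17.5 to PN15 were 3.04 and -1.60. Tbx2 thus moved from percentile 72.9 of all symbols to 98.3 in H3K27me3 and from 97.8 to 45.6 in H3K4me2.

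Tbx3, the closest relative of Tbx2, moved in the same directions from a higher starting level of H3K27me3. H3K27me3 was 54 (E17.5), 121 (PN1), 197 (PN7) and 209 (PN15), and H3K4me2 was 107, 72, 97 and 36. H3K27me3 rose by 1.15 (log2) between E17.5 and PN1 and stood 0.70 higher at PN7 than at PN1, with intervals that did not overlap (100 to 145 and 170 to 227), whereas the intervals at PN7 (170 to 227) and PN15 (182 to 239) overlapped. The log2 changes from E17.5 to PN15 were 1.93 for H3K27me3 and -1.55 for H3K4me2, and the intervals of neither mark overlapped between these stages.

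Tbx5, which lies next to Tbx3 and is restricted to the dorsal retina, went the other way in H3K27me3. Its H3K27me3 was 401 (E17.5), 517 (PN1), 406 (PN7) and 169 (PN15). H3K4me2 was 46, 40, 24 and 17, at or below percentile 68 in each library. From E17.5 to PN15 its log2 changes were -1.24 for H3K27me3 and -1.38 for H3K4me2, so that Tbx5 was the only member to lose 2-fold of both marks. At PN15 the H3K27me3 values of the T-box genes lay close together at 164, 209 and 169, after 19, 54 and 401 at E17.5, and the interval of Tbx5 at PN15 (144 to 196) overlapped those of both others.

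Bmp4, the secreted ligand upstream of the dorsal T-box genes, carried high H3K27me3 at every stage, with 265 (E17.5), 383 (PN1), 302 (PN7) and 180 (PN15). Its H3K4me2 was 36, 25, 34 and 14. The H3K4me2 change was -1.30 (log2).

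Aldh1a1, the dorsal retinaldehyde dehydrogenase, stood apart from the other members in having almost no H3K27me3. The values were 4, 9, 7 and 9, all below the 95th percentile of the olfactory receptor entries of the same libraries (21 to 29), which serve here as background because these genes are generally silent in the retina. Its log2 change of 1.0 therefore meets the 2-fold rule between values at background, and the intervals at E17.5 (1.09 to 10.2) and PN15 (4.12 to 17.1) overlapped. H3K4me2 was 33 (E17.5), 19 (PN1), 3 (PN7) and 7 (PN15), a log2 change of -2.09 from E17.5 to PN15. With a pseudocount of 5 the change was -1.66. The value of PN7 comes from a library with 19.5% of its entries at 0, and it exceeded the background there (1), whereas that of PN15 equalled its background (7).

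On the ventral side the Vax genes, homeobox genes of the same family, parted in H3K4me2. Vax2 had H3K4me2 of 101 (E17.5), 57 (PN1), 80 (PN7) and 108 (PN15), and the intervals at the ends of the course overlapped (82.3 to 123 and 88.6 to 130). It was the only member that did not fall, with a log2 change of 0.10. The window also holds part of the antisense transcript Vax2os1, whose share of the signal cannot be told apart. Vax1 had 67, 36, 61 and 20, a log2 change of -1.70.

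In H3K27me3 the Vax genes ran in parallel, with 341, 535, 380 and 238 at Vax1 and 185, 342, 198 and 145 at Vax2. Both peaked at PN1 and changed by less than 2-fold over the course, at -0.52 and -0.35 (log2). Vax2 thereby held high values of both marks at each stage, at or above percentile 89.4 in H3K4me2 and 95.2 in H3K27me3.

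Aldh1a3, the ventral counterpart of Aldh1a1, carried H3K27me3 of 94 (E17.5), 126 (PN1), 151 (PN7) and 102 (PN15), a log2 change of 0.12. Its H3K4me2 was 62, 36, 32 and 20, a log2 change of -1.58. The pair of enzymes that catalyse the same step thus shared the loss of H3K4me2, while their H3K27me3 differed at each stage beyond counting error.

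The genes of retinoic acid degradation carried high H3K27me3 from the earliest stage. At Cyp26a1, whose promoter holds the DR5 element shown above, H3K27me3 was 292, 344, 381 and 255, and H3K4me2 was 96, 62, 68 and 23. At Cyp26c1, H3K27me3 was 396, 463, 338 and 210, and H3K4me2 was 22, 21, 6 and 8. Cyp26a1 began with H3K4me2 in the upper ranks (percentile 95.8) and changed by -2.01 (log2), whereas Cyp26c1 was never above percentile 41.2 and the intervals of its H3K4me2 at E17.5 and PN15 overlapped.

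Between neighbouring stages, 2-fold falls of H3K4me2 were most frequent among the members from PN7 to PN15. None changed 2-fold from E17.5 to PN1 (8.23% of all symbols rose and 6.71% fell), and from PN1 to PN7 only Aldh1a1 and Cyp26c1 fell (4.06% rose and 36.8% fell). These 2 of 10 are a smaller share than over all symbols, while 12% of the 1511 symbols rich in H3K27me3 fell. The intervals of Cyp26c1 overlapped in that step (13 to 32.1 and 2.2 to 13.1). From PN7 to PN15 the 5 genes Tbx2, Tbx3, Vax1, Cyp26a1 and Bmp4 fell, by -1.22 to -1.56 on the log2 scale, where 2.04% of all symbols fell and 52.3% rose. Among the 1511 symbols rich in H3K27me3, to which 4 of these 5 belong, 10.8% fell and 12.3% rose, with a median of -0.07. Aldh1a1 met the rule upwards in that step, from 3 to 7 with overlapping intervals. The H3K4me2 library of PN7 differs from the others in that 19.5% of its entries are 0, against 0.362% to 2.52%, and the median of all symbols moved by 1.0 (log2) from PN7 to PN15, the opposite direction to these genes.

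H3K27me3 calls were fewer. From E17.5 to PN1 Tbx3 and Aldh1a1 rose (5.74% of all symbols rose and 8.25% fell), and all 10 members had a value above that of E17.5, as did 49.1% of all symbols and 88.9% of the symbols with a mean H3K27me3 of at least 100. From PN1 to PN7 Tbx2 rose (6.99% rose and 13.5% fell). From PN7 to PN15 Tbx2 rose and Tbx5 fell (15% rose and 9.67% fell). Among the 1511 rich symbols, which include Tbx5 but not Tbx2, 0.728% rose and 42.8% fell in that step, with a median of -0.94. H3K27me3 was higher at PN1 than at every other stage in 5 of the 10 members (Tbx5, Bmp4, Vax1, Vax2 and Cyp26c1), as in 25.6% of all symbols and 78.7% of the 1511 rich symbols.

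**Figure D2:**
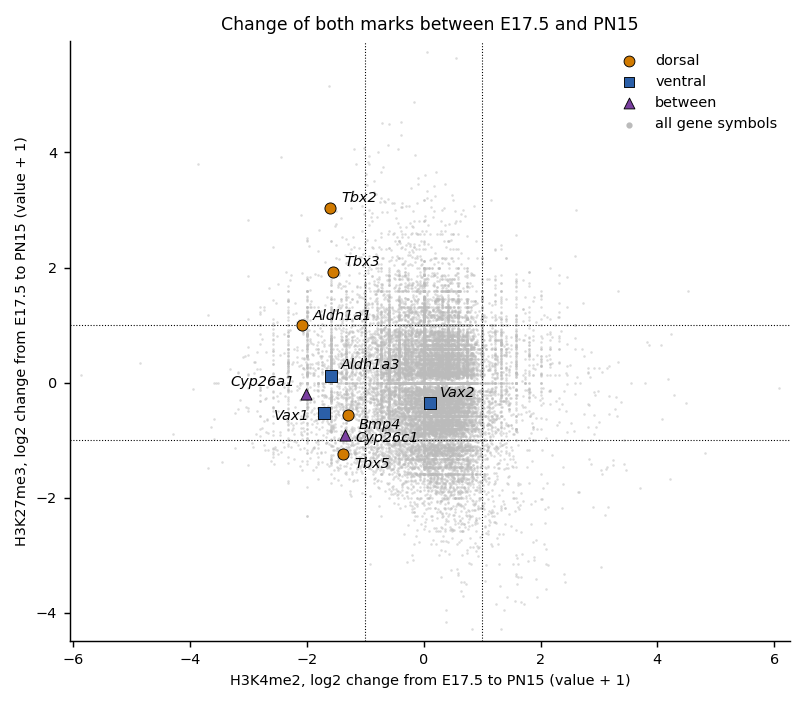
Log2 change of value + 1 from E17.5 to PN15 for H3K4me2 (horizontal axis) and H3K27me3 (vertical axis), with all 20044 gene symbols in grey and the 10 genes by group, and dotted lines at 2-fold. Except Vax2 at 0.10, the genes lie left of the H3K4me2 line, and they spread from -1.24 (Tbx5) to 3.04 (Tbx2) in H3K27me3.

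The dorsal and ventral genes were then set side by side. In H3K4me2 the median change from E17.5 to PN15 was -1.55 over the 5 dorsal genes and -1.58 over the 3 ventral genes, a difference of 0.04. In H3K27me3 it was 1.0 over the dorsal and -0.35 over the ventral genes, a difference of 1.35. The dorsal genes covered the whole range from -1.24 to 3.04 and enclosed the ventral genes, at -0.52 to 0.12, so the groups overlapped. The dorsal median is the value of Aldh1a1, which was at background in each H3K27me3 library.

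By level, the dorsal genes had a median H3K27me3 of 54 (E17.5), 121 (PN1), 197 (PN7) and 169 (PN15), and the ventral genes 185, 342, 198 and 145. The ventral median was the higher one at E17.5 and PN1, the groups were about level at PN7, and the dorsal median was the higher one at PN15. At each stage the dorsal range enclosed or overlapped the ventral range, for example 4 to 401 and 94 to 341 at E17.5. The Cyp26 genes had a median of 344, 404, 360 and 232, above both group medians at each stage.

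At 3 members H3K4me2 fell and H3K27me3 rose by 2-fold from E17.5 to PN15, a combination found in 2.05% of all symbols, and all 3 are dorsal (Tbx2, Tbx3 and, between background values, Aldh1a1). H3K4me2 exceeded the olfactory receptor background in all 4 stages at 9 members (66.9% of all symbols), Aldh1a1 being the exception. Cyp26c1 passed it narrowly at PN15, with 8 against 7, and with the 99th percentile as the limit the count was 8. H3K27me3 did so at 8 members (15.5% of all symbols), all but Tbx2, which was under it at E17.5, and Aldh1a1. With the 95th percentile of vomeronasal receptor entries as the limit the H3K27me3 count was 9.

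High H3K27me3 values shrank over the whole table. Among the 1511 symbols with a mean H3K27me3 of at least 100, the middle change over the course was -1.12 (log2), with 59.8% lower and 1.19% higher by 2-fold, and the highest value of a library went from 809 to 416. In rank, 9 of 10 members stood higher in the last H3K27me3 library than in the earliest, as did 49.4% of all symbols and 39.5% of these 1511, among them 5 whose value was lower (Vax1, Vax2, Cyp26a1, Cyp26c1 and Bmp4) and whose rank moved by 0.5 to 2.6 percentile points near the top of the scale. Cyp26a1, for example, went from 292 to 255 and from percentile 97.3 to 99.5. In H3K4me2 the rank was lower at PN15 in all 10, Vax2 included (percentile 97.0 to 91.1), and in 48.7% of all symbols and 65.3% of these 1511.

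**Figure D3:**
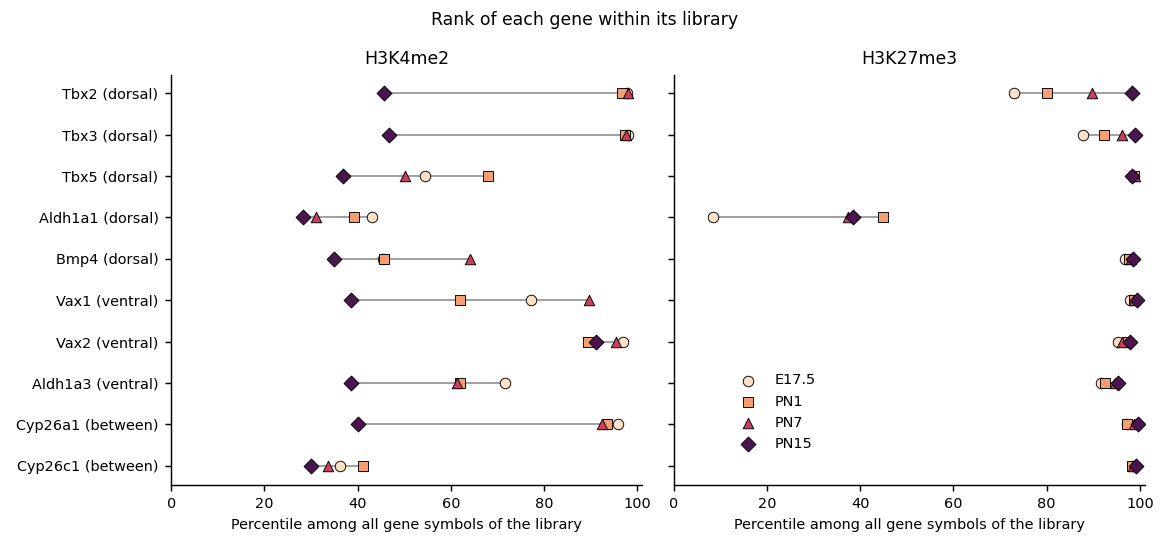
Percentile of each gene among all symbols of its library (horizontal axis) for H3K4me2 and H3K27me3, with a marker for each stage and a grey line over the range. Tbx2, Tbx3 and Cyp26a1 leave the top ranks of H3K4me2 at PN15 only (45.6, 46.7 and 40.1), and 9 genes end above percentile 95 in H3K27me3, with Aldh1a1 at 38.5.

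CpG content of the windows was compared on the mm9 sequence, as a property the choice of genes did not use. The ratio of observed to expected CpG was 0.648 at Tbx2, 0.668 at Tbx3, 0.341 at Tbx5, 0.463 at Bmp4, 0.589 at Vax1, 0.429 at Vax2, 0.375 at Aldh1a3, 0.629 at Cyp26a1 and 0.469 at Cyp26c1. At Aldh1a1 it was 0.130, with 27 CpG in the window (percentile 8.73), where the median over 19233 symbols was 0.360. Among symbols with a ratio under 0.2, 0.768% had a mean H3K27me3 of at least 100, beside 7.5% at 0.2 to 0.4, 10.9% at 0.4 to 0.6, 13.8% at 0.6 to 0.8 and 13.4% of 82 symbols above that. The median of the mean H3K27me3 did not rise with the ratio, at 9, 12, 9.25, 8.25 and 10 in these bins. Aldh1a1, the member with the lowest ratio, was also the only one with H3K27me3 under background at all 4 stages, while among the other 9 the ratio did not follow the level, since Tbx5 had a ratio below the median and the highest H3K27me3 at E17.5.

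**Figure D4:**
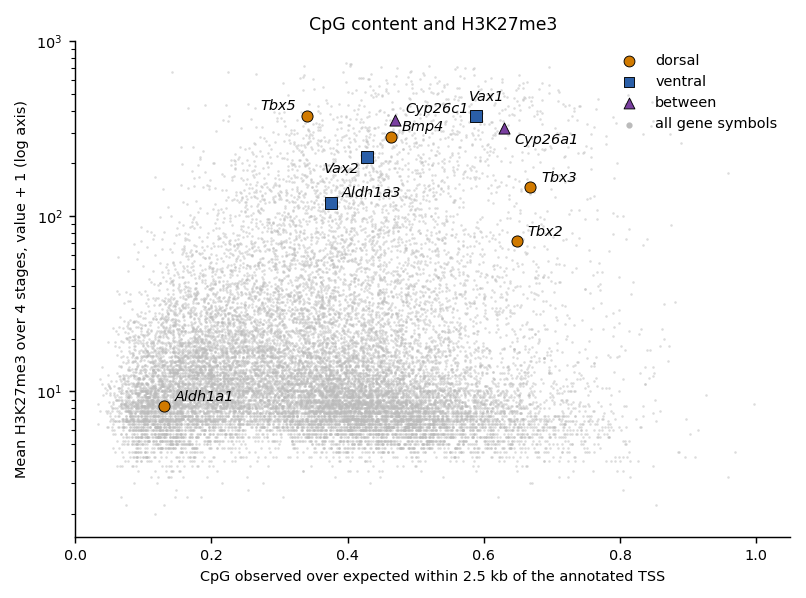
Observed over expected CpG within 2.5 kb of the annotated TSS (horizontal axis) against mean H3K27me3 over 4 stages, as value + 1 on a log axis, for 19233 symbols in grey and the 10 genes by group. Aldh1a1 lies at the lower left with a ratio of 0.130, and the other 9 genes lie between 0.341 and 0.668.

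Other genes of the same pathways were read from lists, whose counts stand against 11.7% lower and 7.83% higher in H3K4me2 and 16.1% lower and 12.1% higher in H3K27me3 over all symbols. Among the 1511 symbols rich in H3K27me3, 26.1% were lower in H3K4me2 (median -0.39) and 59.8% in H3K27me3 (median -1.12). Listed genes with high H3K27me3, such as Rarg, Bmp2, Shh and T, belong to these. Among 17 further genes of retinoic acid metabolism and signalling, H3K4me2 fell at 4, Aldh1a7 with 6 and 2 among them, and rose at 0 (median -0.69), and H3K27me3 rose at 3 and fell at 2 (median -0.19). H3K27me3 rose at Crabp2 (23 to 85), which encodes a retinoic acid binding protein, and at Stra6 (16 to 53), which encodes a receptor for retinol uptake, and H3K4me2 fell at both, from 107 to 27 and from 24 to 8. The receptor gene Rarg went from 303 to 47 in H3K27me3 and the retinaldehyde reductase gene Dhrs3 from 79 to 21. A further retinaldehyde dehydrogenase gene, Aldh1a2, had 289 at E17.5 and 147 at PN15, and its H3K4me2 of 36 and 22 differed by less than 2-fold. Cyp26b1, the third Cyp26 gene, had H3K27me3 of only 35, 18, 18 and 20, far below Cyp26a1 and Cyp26c1.

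Of 18 dorsal and BMP pathway genes, H3K4me2 fell at 1 (Id3, 117 to 49), and H3K27me3 rose at 4 and fell at 3 (median 0.19). The BMP target Id1 went from 9 to 40 in H3K27me3 and the dorsal ephrin genes Efnb2 and Efnb1 from 5 to 24 and from 32 to 68, both values of Efnb2 being under the olfactory receptor background (21 and 29), as were those of Bmpr1a (3 and 7), while the ligand gene Bmp2 went from 275 to 108 and the BMP-binding regulator Bmper from 130 to 55. Of 13 ventral and hedgehog genes, H3K4me2 fell at 3 and H3K27me3 rose at 5 and fell at 2 (median -0.29), with 1 rise (Ephb2, 6 to 19) and 1 fall (Ptch1, 5 to 0) between background values. H3K27me3 rose at Nr2f1 (4 to 76), Smo (12 to 53), Gli2 (24 to 99) and Gli1 (42 to 93) and fell at the ligand gene Shh (488 to 177), and the optic stalk gene Pax2 lost H3K4me2 (49 to 11).

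Among the 13 other T-box genes H3K4me2 fell at 7 (median -1.16), among them Tbx18 (50 to 7) and Tbx20 (41 to 8). H3K27me3 fell at 5 and rose at 1 (median -0.97). That median was close to the -1.12 of the 1511 rich symbols, to which T, Tbx1 and Tbx15, among others, belong. H3K27me3 went from 750 to 202 at T, from 590 to 269 at Tbx15 and, under background, from 10 to 21 at Tbx19. The pair of changes seen at Tbx2 and Tbx3 was found in part of the eye field and progenitor genes. Among 12 of these, H3K27me3 rose at 10 (median 2.21) and H3K4me2 fell at 5 (median -0.25), and both happened at 5, among them Pax6 and Sox2. At 4 of the 10 (Six3, Six6, Mab21l1 and Mab21l2) both H3K27me3 values were under the olfactory receptor background, and at Otx2 H3K27me3 fell from 212 to 46. Pax6, a master regulator of eye development, went from 4 to 178 in H3K27me3 and from 137 to 44 in H3K4me2. Both changes together were seen at 0 of the other T-box genes.

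**Figure D5:**
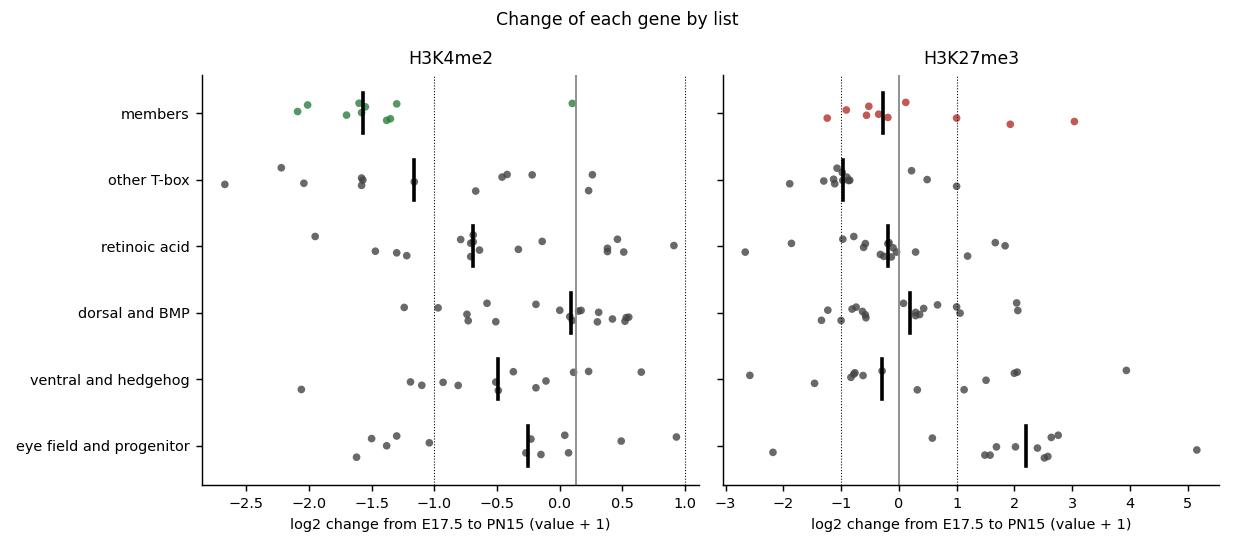
Log2 change of value + 1 from E17.5 to PN15 for the genes of each list (points, shifted vertically for visibility), with a black bar at the list median, a grey line at the median of all symbols and dotted lines at 2-fold. In H3K27me3 the eye field and progenitor genes have a median of 2.21 and the other T-box genes -0.97, with Tbx2 (3.04) and Tbx3 (1.93) at the right of the members. The 1511 symbols rich in H3K27me3, not drawn, have a median of -1.12 in that mark.

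Profiles nearest to each member were found by the Euclidean distance over the 8 libraries as log2(value + 1). The closest match of all was Pou4f2, a ganglion cell factor, to Vax1 at a distance of 0.32. It had H3K4me2 of 64, 43, 62 and 20 and H3K27me3 of 365, 507, 412 and 223. The nearest gene to Tbx3 was Nr2e1, a nuclear receptor of progenitors, at 0.77, and the nearest to Tbx5 was Sp8 at 0.54. Tbx2 had no close neighbour, the nearest being Sdk2 at 1.24, Atoh8 at 1.27 and Gli2 at 1.28. For the others the nearest were Isl1 to Bmp4 (0.69), Ccno to Vax2 (0.77), Lrrc66 to Aldh1a1 (0.88), Cdh3 to Aldh1a3 (0.40), Prrx1 to Cyp26a1 (0.75) and AU042651 to Cyp26c1 (0.57). Within the members the closest pairs were Vax1 and Cyp26a1 at 1.17 and the dorsal genes Tbx5 and Bmp4 at 1.26.

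Markers of cell types changed over the same stages. The H3K4me2 of 6 rod genes summed to 87 (E17.5), 94 (PN1), 134 (PN7) and 534 (PN15), all 6 above background at PN15, where 0 of them were above background in H3K27me3, and that of 6 genes of other retinal cells went from 291 to 133. The 7 pigment epithelium genes summed to 155 and 163 at E17.5 and PN15. Of them, 4 and 5 were above background at these stages, with highest values of 57 and 67, while Rpe65 and Tyr were at 5 or less in each H3K4me2 library. The 4 lens genes summed to 28 with 3 above background at E17.5 and to 15 with 0 above background at PN15. The 3 muscle genes summed to between 22 and 49 and the 3 liver genes to between 14 and 37. At PN7 H3K4me2 was 0 at Rpe65, Tyr, Best1, Lim2, Mip and Myh1, and at PN15 it was 0 at Alb. In the same PN7 library 4 pigment epithelium genes (highest 49) and 2 muscle genes (highest 14) were above background. So were 1 lens gene (3) and 1 liver gene (12). The part of these shifts in the decreases of H3K4me2 at the members was not tested. Over all symbols the median was 24 to 42 in H3K4me2 and 9 to 11 in H3K27me3 libraries. Read totals were not analysed here, so depth is known only as far as each whole number up to at least 109 occurred in every library, which bounds 1 read at 1 unit.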

How the data were processed

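H3K4me2 and H3K27me3 ChIP-Seq libraries of mouse retina were analysed, 1 per mark at E17.5, PN1, PN7 and PN15. Per the labels and methods, the authors mapped reads with Bowtie 0.12.4 to mm9, kept uniquely placed reads, and added up read midpoints over 2.5 kb on either side of RefSeq start sites. Values were deposited as scores, that is sums normalized by the authors to mapped reads and rounded to whole numbers, so no count model was used. Normalization to the total makes values of a library relative to its other regions. All 8 columns were used, and 0 were left unmapped. The 2 samples without a column were not analysed here.

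Changes are log2 ratios of value + 1, called at 2-fold or more. Where a gene had several entries, the one with the highest total was used. There were no replicates, hence no test. Background was the 95th percentile of 1053 olfactory receptor entries per library. Exact Poisson 95% intervals took 1 unit as 1 read. Sequences came from NCBIM37 (mm9), its GENCODE annotation and the RefSeq promoter table.

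The members and lists were chosen with earlier results of these data known. All 10 members are named, with listed genes past 2-fold and at 20 or more at E17.5 or PN15 (at most 5 per list and mark) and the 3 nearest profiles per member, of which the closest are printed. Aldh1a2, Aldh1a7, Cyp26b1, Bmpr1a, Ephb2, Ptch1, Tbx19, Mab21l1 and Otx2 fall outside that rule and were named after their values were seen, as were markers listed at 0. Some listed genes are not reported here by name.

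Alternatives were a pseudocount of 5, libraries rescaled to a common median, the mean over entries, 1.5-fold, a filter at 10, other background limits and, added after seeing the data, PN1 as the early stage and the H3K27me3-rich symbols as background. Python 3.11.15, numpy 2.4.6, pandas 2.3.3, scipy 1.17.1 and matplotlib 3.10.9 were used, and the scripts were tested on simulated data.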

Additional observations from a re-analysis of the deposited data

How the results depend on the processing

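The early stage mattered most. From PN1 in place of E17.5, a choice added after seeing the data, 5 members fell in H3K4me2 rather than 9, 1 rose in H3K27me3 rather than 3, and 5 fell rather than 1. Over all symbols, 12.4% fell in H3K4me2 from PN1, and 13.1% rose and 16.9% fell in H3K27me3. The median change of the members was then -1.0 in H3K4me2 and -0.76 in H3K27me3, and rescaling gave -0.14 in H3K27me3 rather than -0.27. At 1.5-fold, 2 members fell in H3K27me3 rather than 1. In 60 recalculations of single members from E17.5 to PN15 none left its counting interval and none past 2-fold changed sign. Those with the mean over entries could not differ, since members had 1 entry or identical entries, and the same holds for the member summaries below. Rescaling could move H3K4me2 only little, as the library medians were 41 at E17.5 and 42 at PN15. The bounds pair opposite interval limits of both stages and are wide, so staying within them is a weak check. Of 42 recalculated summary values 7 moved, and 35 did not move beyond 1.5 times (counts and member medians) or the bounds from the counting intervals (differences). With a pseudocount of 5 or a filter at 10, Aldh1a1 no longer counted among the H3K27me3 increases, which left 2. With a pseudocount of 5 the order of H3K4me2 decreases also turned, with Cyp26a1 at -1.85 past Aldh1a1 at -1.66 and Cyp26c1 at -1.05 short of Bmp4 at -1.11. The H3K27me3 difference between dorsal and ventral medians was 0.98 to 1.35, and that of H3K4me2, 0.04, was -0.03 with a pseudocount of 5, so its sign carries nothing.

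Shares over all symbols moved as well. With a pseudocount of 5, 3.19% rose and 4.72% fell in H3K4me2, against 7.83% and 11.7%, and 5.37% rose and 9.54% fell in H3K27me3, against 12.1% and 16.1%. With the filter at 10, 5.13% of the symbols left rose in H3K4me2. At 1.5-fold 19.2% rose in H3K4me2 and 21.8% rose and 26.8% fell in H3K27me3, and from PN1 21.3% rose in H3K4me2. Rescaling to a common median gave 13.5% higher and 11.7% lower in H3K27me3, a shift of the median of all symbols to 0.11, and left the member counts at 3 and 1. No paired analysis was possible because each mark and stage has 1 library.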
